A study of Mus musculus with 4 samples.

Results

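The 10 chemokine genes Ccl2, Ccl3, Ccl4, Ccl5, Ccl6, Ccl7, Ccl9, Ccl12, Cxcl2 and Cxcl16 were followed in single brain myeloid cells of mice with amyloid plaques. They were listed by symbol, and each matched 1 of the 32372 gene features. The cells came from the left hemisphere of female mice, labelled as 4 months old, and were sorted as CD11b+/CD45+ cells after a Percoll gradient. All mice carried the APP/PS1 transgenes, which drive amyloid deposition. The group named cKO (APP/PS1:miR-155 cKO) was labelled as having miR-155 deleted in microglia, and the group named Control was APP/PS1 alone. Each group had 2 libraries, labelled as biological replicates. The Cre driver, the deleted stretch and whether animals were pooled are not given in the sources used here. Both groups carry plaques, so no value here describes a healthy brain.

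A droplet barcode was kept as a cell when it held at least 1000 unique molecular identifiers (UMIs, each standing for 1 captured RNA molecule) and 500 genes, with at most 10% mitochondrial UMIs. This left 13940 cells, 2852 to 4351 in each library, with median depths of 6158 to 7236 UMIs. At least 2 of 10 microglia markers were found in 99.7 to 100% of the cells of each library, while 3 or more monocyte markers were found in 51 cells in all and 3 or more oligodendrocyte markers in 383. In each library 16.1 to 18.7% of cells held 2 or more markers of some class other than microglia. Pairs of libraries shared 1 to 4 cell barcodes. UMIs of Mir155hg, the host transcript of miR-155, numbered 1 and 1 in the cKO libraries and 7 and 11 in the Control libraries. The files do not measure the mature miRNA. Control replicate 1 went against its label of female mice, since Xist, the RNA of the inactive X chromosome, was at 0.705 CPM (UMIs scaled to a common library size) there and at 1738 to 1875 CPM in the other 3 libraries. Results that changed without this library are therefore given both ways.

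Chemokines are small secreted proteins that guide migrating leukocytes through G protein-coupled receptors. CC chemokines carry a pair of adjacent cysteines near the N terminus, and CXC chemokines have 1 residue between them. In brain, microglia and border macrophages are main sources. Ccl3, Ccl4 and Ccl5 draw monocytes and T cells, and Ccl3 and Ccl5 are ligands of Ccr1. Ccl2, Ccl7 and Ccl12 are ligands of Ccr2, the receptor that draws inflammatory monocytes. Ccl6 and Ccl9 are rodent chemokines that act on Ccr1. Cxcl2 attracts neutrophils through Cxcr2. Cxcl16 is made as a membrane protein, binds Cxcr6 and can be shed by Adam10.

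Of these genes 9 sit on mouse chromosome 11, and Cxcl2 sits on chromosome 5 (GRCm38, GENCODE M21 annotation). The Ccr2 ligands lie together on the plus strand, with Ccl2 at chr11:82035571-82037453, Ccl7 at chr11:82045712-82047525 and Ccl12 at chr11:82101845-82103400. Farther along come Ccl5 (chr11:83525778-83530518, minus strand), Ccl9 (chr11:83572919-83578636, minus), Ccl6 (chr11:83587882-83593087, minus), Ccl3 (chr11:83647844-83649355, minus) and Ccl4 (chr11:83662584-83664683, plus). Cxcl16 lies apart at chr11:70453983-70459984 on the minus strand, and Cxcl2 is at chr5:90903871-90905938 on the plus strand. All are protein-coding. Ccl2, Ccl6 and Cxcl16 overlap Gm17268, E230016K23Rik and Zmynd15 on the opposite strand, and whether the counting used strand is not given in the sources used here. The longest stretch of identical transcript sequence between any pair was 25 bases, between Ccl6 and Ccl9, followed by 23 bases between Ccl2 and Ccl7.

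RefSeq promoter windows, from 250 bases before the start site to 50 after it, were held for 5 of the 10 genes (GRCm38.p6). The neighbours Ccl6 and Ccl9 share a stretch around their start sites that is shown because the expression of this pair parted in the results below. In Ccl6 it runs from 59 bases before the start site to base 15 (chr11:83593073-83593146, minus strand), and in Ccl9 from 18 bases before it to base 49 (chr11:83578588-83578654, minus strand). Of the 67 aligned bases 58 were identical (86.6%), with 7 bases of Ccl6 unmatched. Capitals mark bases that differ or have no partner, and each line reads 5′ to 3′.
Ccl6: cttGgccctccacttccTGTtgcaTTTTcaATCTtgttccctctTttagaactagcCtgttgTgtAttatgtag
Ccl9: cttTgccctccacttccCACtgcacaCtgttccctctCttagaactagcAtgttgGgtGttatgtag

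The promoter windows of Ccl12, Ccl3 and Ccl9 are shown because these genes were, respectively, highest in the interferon class, among those higher in the MGnD class and in neither. The windows are chr11:82101595-82101894 on the plus strand for Ccl12, chr11:83649329-83649628 on the minus strand for Ccl3 and chr11:83578587-83578886 on the minus strand for Ccl9. Capitals mark motif matches.
Ccl12: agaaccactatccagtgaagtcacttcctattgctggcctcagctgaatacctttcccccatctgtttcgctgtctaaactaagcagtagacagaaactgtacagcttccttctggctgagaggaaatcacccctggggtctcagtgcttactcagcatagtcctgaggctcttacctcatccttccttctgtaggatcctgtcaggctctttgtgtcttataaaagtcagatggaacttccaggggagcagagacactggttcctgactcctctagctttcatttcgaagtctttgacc
Ccl3: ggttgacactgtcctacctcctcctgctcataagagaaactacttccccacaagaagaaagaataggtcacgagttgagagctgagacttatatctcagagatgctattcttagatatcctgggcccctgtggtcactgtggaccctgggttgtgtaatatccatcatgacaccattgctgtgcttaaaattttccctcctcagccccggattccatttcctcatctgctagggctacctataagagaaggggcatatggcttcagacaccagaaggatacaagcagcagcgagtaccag
Ccl9: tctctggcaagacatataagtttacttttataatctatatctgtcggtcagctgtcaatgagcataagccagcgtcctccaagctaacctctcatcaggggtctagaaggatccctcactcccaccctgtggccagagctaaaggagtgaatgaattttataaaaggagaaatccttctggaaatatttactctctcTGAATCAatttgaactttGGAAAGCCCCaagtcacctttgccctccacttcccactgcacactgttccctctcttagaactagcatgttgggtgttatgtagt
The motifs below were searched on both strands. The interferon-stimulated response element GAAANNGAAA was in none of the 5 windows and in 3.44% of 32851 promoter windows of the same length. The gamma-activated site TTCNNNGAA was in none of the 5 and in 8.30% of all. The AP-1 motif TGANTCA was in the Ccl9 window alone, 53 to 47 bases before the start site, against 7.81% of all windows. A match to the NF-kB motif was in the windows of Ccl9, 35 to 26 bases before the start, and Cxcl2, against 8.46% of all.

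The miRNA deleted in the cKO group is shown to allow a search for its target sites (mmu-miR-155-5p, chr16:84714143-84714165, plus strand, RefSeq, with the seed of bases 2 to 8 in capitals).
mmu-miR-155-5p: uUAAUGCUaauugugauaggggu
The complement of this seed, AGCATTA, was in none of the annotated 3′ UTRs of the 10 chemokines and in 1147 of those of 11845 expressed genes (9.68%). A match is a description of letters, and its absence says only that these letters are missing from the window searched.

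The chemokines fell into a group found in many cells and a group found in few. Each cell was thinned at random to 2000 UMIs so that all were read at equal depth, which left out 186 to 352 shallower cells in each library. Of the 10 genes 7 were seen in 13.1 to 48.4% of the thinned cells of a library, and Ccl5, Ccl7 and Cxcl2 in 0.114 to 1.88%. Libraries are given in the order cKO replicates 1 and 2, then Control replicates 1 and 2. These are 3′ counts without a length term, and capture can differ between genes, so the order below is one of detection and not of transcripts per cell.

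Ccl3, a ligand of Ccr1, was detected in 43.5%, 35.8%, 38.8% and 48.4% of cells at 2000 UMIs. Ccl4, its neighbour on the chromosome, was in 35.9%, 31.0%, 29.9% and 36.3%. In both, the groups overlapped, and the spread between libraries of one genotype was as wide as that between genotypes. Ccl6 was in 35.1%, 28.2%, 37.2% and 34.9% of cells, and Ccl12 in 28.2 to 31.6% of them over the 4 libraries. Neither separated from the other or from Ccl4 beyond the spread of the 4 libraries. Ccl9 followed at 24.8%, 22.6%, 22.8% and 22.7%, a range below that of any of the 4 genes before it. Ccl2 was in 15.3%, 16.7%, 13.9% and 16.5%, and Cxcl16 in 14.9%, 13.1%, 14.7% and 13.6%, ranges that overlapped.

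Without thinning, Ccl6, Ccl12 and Ccl3 were found in 54.6 to 60.6%, 55.4 to 58.6% and 50.1 to 62.2% of the cells of a library. Ccl9 and Ccl4 followed at 48.5 to 51.8% and 44.3 to 51.8%, then Cxcl16 at 38.6 to 39.3% and Ccl2 at 29.0 to 33.5%. A level shared by most cells and one carried by few deep cells can give the same share, so the spread of UMIs among cells is given too. Cxcl16 and Ccl9 had variances of 1.14 to 1.26 and 1.40 to 1.52 times the mean UMIs per thinned cell. Random sampling of an equal level gives a ratio near 1, but a low mean also brings the ratio near 1. Mean UMIs per cell were 0.154 to 0.174 for Cxcl16, 0.309 to 0.340 for Ccl9 and 0.962 to 1.15 for Ccl4. An even spread is therefore not shown, and Cxcl16 differed between the classes below. For Ccl12 the ratio was 5.07 to 11.7 and for Ccl4 5.43 to 8.05, so their UMIs were concentrated in some cells. The top 5% of cells held 47.3 to 57.6% of Ccl12 UMIs, and single thinned cells reached 34 to 63 of them.

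**Figure D1:**
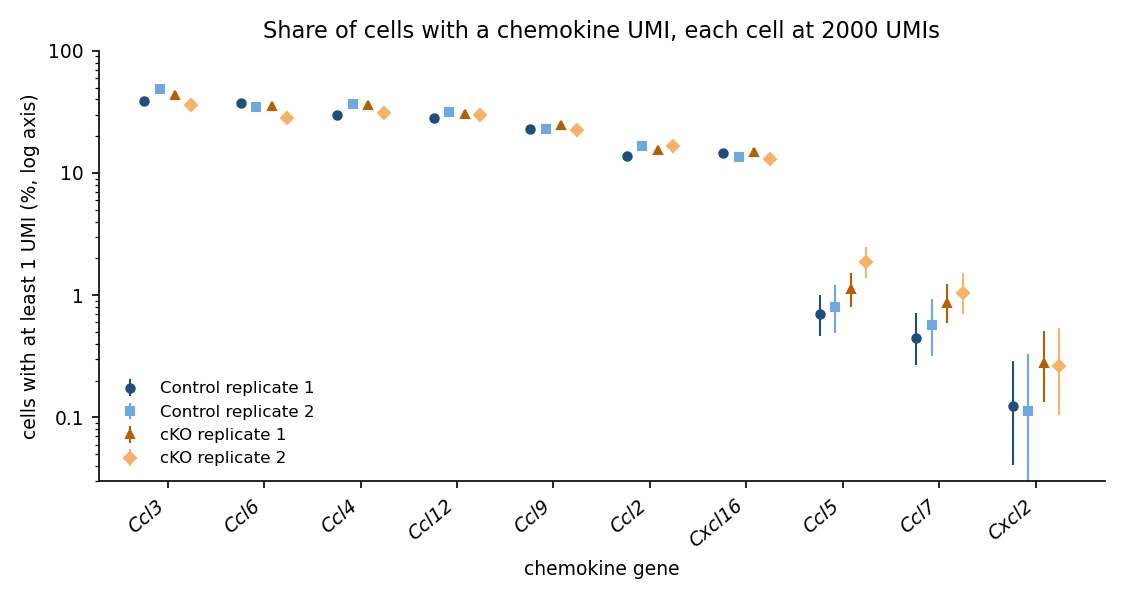
Share of cells with at least 1 UMI (vertical axis, percent, log scale) for each chemokine (horizontal axis), with every cell thinned to 2000 UMIs. Each point is 1 of 4 libraries. The 7 frequent genes lie between 13.1 and 48.4%, and Ccl5, Ccl7 and Cxcl2 lie at or below 1.88%.

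Free RNA can place a UMI in a cell that does not make the gene, so detection was set beside barcodes that should lack microglial RNA. A set of 46 barcodes had at most 3 microglia markers and at least 2 of another class, chosen after values were seen (median depth 7691 UMIs). Ccl12 was in 1 of them (2.17%), Ccl2 and Ccl4 in 4 each (8.70%) and Ccl3 and Cxcl16 in 7 each (15.2%). In the 12471 cells with 9 or 10 microglia markers, at a median of 6848 UMIs, the shares were 60.2% for Ccl12, 33.1% for Ccl2, 49.7% for Ccl4, 58.6% for Ccl3 and 41.4% for Cxcl16. All 5 shares lay well above that background.

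Ccl6 and Ccl9 behaved otherwise. They were in 30 (65.2%) and 26 (56.5%) of the 46 barcodes, against 62.0% and 53.9% of cells with 9 or 10 microglia markers. Among the 29 of these barcodes with 3 or more monocyte markers, Ccl6 and Ccl9 were in 24 each (82.8%), while Ccl12 was in 1 (3.45%). Both genes were thus at least as frequent in monocyte-marked barcodes as in microglia, and no background share for them could be read from these barcodes.

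The RNA of barcodes with at most 100 UMIs, 11.2 to 17.8% of each library's UMIs, gave another view of free RNA. It held Ccl3 at 406 to 576 CPM, Ccl4 at 469 to 506 CPM, Ccl12 at 225 to 235 CPM and Ccl6 at 148 to 284 CPM, in each library below the level in its cells (560 to 830, 549 to 679, 272 to 379 and 280 to 491 CPM). If 100 of the 2000 UMIs of a cell came from it, Ccl3 would be seen in 3.98 to 5.60% of cells. If all did, Ccl3 would be seen in 55.6 to 68.4%, above the measured share, since free RNA is spread evenly. For Ccl2 the free RNA came closer to the cells, at 134, 154, 106 and 119 CPM against 138, 159, 101 and 137 CPM in the cells. In Control replicate 1 it lay above the cells. The portion of each cell's UMIs that is free RNA was not measured.

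Ccl5, Ccl7 and Cxcl2 belonged to few cells. Ccl5, a T cell and monocyte attractant, had 365 and 564 UMIs in 97 and 104 cells of the cKO libraries and 261 and 499 UMIs in 80 and 57 cells of the Control libraries. Cells with 5 or more Ccl5 UMIs numbered 20 and 32 in cKO and 16 and 15 in Control, and they held 65.9 to 87.6% of each library's Ccl5 UMIs. Of all these cells 1, in Control replicate 2, carried 2 or more lymphocyte markers. Markers of some class other than microglia, 2 or more of 1 class, were in 8 and 14 of these cells in cKO and 5 and 8 in Control, which is 31.2 to 53.3% of them against 16.1 to 18.7% of all cells. Of the same cells 15 and 32 in cKO and 15 and 14 in Control held 8 or more of the 10 microglia markers. Both sets of markers were read without thinning, and deeper cells can hold more markers. The top cell held 22 and 49 UMIs in cKO and 28 and 149 in Control. Ccl5 was therefore rare among cells and deep within a few of them.

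Ccl7 had 208 and 178 UMIs in 84 and 64 cells of the cKO libraries, and 103 and 95 UMIs in 59 and 43 cells of Control. Its top cells held 26, 21, 7 and 16 UMIs. Cxcl2 was the sparsest, with 63 and 70 UMIs in 21 and 12 cKO cells and 76 and 34 UMIs in 22 and 16 Control cells. In the 46 barcodes of other markers Ccl7 was in 0, which allows a share of up to 6.52%. Ccl5 was in 1 of them, with 78 UMIs, and Cxcl2 in 3, with 30 UMIs, 28 of them in 1 barcode. The shares of Ccl5, Ccl7 and Cxcl2 among cells with 9 or 10 microglia markers were 2.49%, 1.93% and 0.521%. A set of 46 barcodes is too small to tell whether shares this low lie above that background. A barcode with many UMIs also occurred, 1 for Ccl5 and 1 for Cxcl2, among those with few microglia markers.

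The cells were next assigned to states known from microglia. MGnD denotes the neurodegenerative phenotype of plaque-associated microglia, with lipid and lysosomal genes such as Lpl, Cst7, Clec7a and Axl. Interferon-responding cells carry antiviral genes such as Ifit3 and Isg15, and cytokine cells carry Tnf, Il1a, Il1b and NF-kB inhibitors. Each state had a list of 12 genes that holds none of the 10 chemokines, and a thinned cell with 3 or more genes of 1 list was placed in that class. Among the thinned cells 7744 had no state, 1863 were in the MGnD class, 489 in the interferon class, 2060 in the cytokine class and 727 in more than 1 (mixed class). The classes are ranges of a score and not cell types. The median cell of the MGnD and interferon classes had 4 genes of its own list, that of the cytokine class had 3, and the medians for the other lists were 0 or 1. Next to the limit, 694 cells had 2 MGnD genes and 614 had 3, 484 had 2 interferon genes and 196 had 3, and 2663 had 2 cytokine genes and 1375 had 3. UMIs were summed for each library and class, and edgeR's quasi-likelihood test with Benjamini-Hochberg adjustment was run over 8736 genes with library as a block. Of the 10 chemokines 8 passed the low-count filter; Ccl7 and Cxcl2 did not and were not tested. Class levels are CPM of the thinned cells.

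In the MGnD class 5 of the 8 tested chemokines were higher than in cells of no state and none was lower. Over all genes 40.2% differed, 20.9% higher and 19.3% lower. The median log2 difference of the 8 was 1.65, against -0.04 over all genes tested. Ccl6 rose most, and Ccl3 and Ccl4 rose about equally.

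The Ccr1 ligand Ccl6 was at 1321, 1328, 1205 and 1231 CPM in the MGnD class (cKO 1, cKO 2, Control 1, Control 2) and at 196, 154, 201 and 186 CPM in cells of no state. The lowest MGnD value was far above the highest of the others in each library. The log2 difference was 2.76 ± 0.06 (SE), 6.77-fold, with an adjusted p of 2.18e-59. The MGnD class made up 14.1% of cells, as a mean over libraries, and held 43.4% of the Ccl6 UMIs. Within it 72.7% of cells had a Ccl6 UMI, against 26.1% of cells of no state.

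Ccl3 was at 1594, 1702, 1329 and 1607 CPM in the MGnD class and at 383, 353, 288 and 507 CPM without a state. The log2 difference was 2.03 ± 0.06 with an adjusted p of 1.29e-49 (edgeR), and the share of cells with a UMI was 73.9% against 32.9%. Ccl4 was at 1316, 1610, 1180 and 1213 CPM against 317, 351, 234 and 386 CPM. Its log2 difference was 2.05 ± 0.07, with an adjusted p of 9.54e-46 (edgeR). Within libraries Ccl3 was 3.17 to 4.82 times and Ccl4 3.14 to 5.04 times as high in the MGnD class, yet cells of no state also held them, at 234 CPM or more.

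Cxcl16, the membrane-bound CXC ligand, was at 159, 149, 176 and 141 CPM in the MGnD class and at 66.5, 55.0, 59.6 and 60.4 CPM without a state (log2 difference 1.39 ± 0.09, edgeR adjusted p 2.44e-25). Ccl5 was at 17.5, 17.8, 11.4 and 40.8 CPM against 7.12, 6.81, 4.19 and 7.39 CPM (1.91 ± 0.35, edgeR adjusted p 4.06e-06). The Ccl5 call rests on few cells: it was lost with DESeq2 (adjusted p 0.0798) and without cells carrying markers of another class (0.192). At 1000 UMIs its difference was -0.22.

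The other 3 did not pass the test in the MGnD class. Ccl9 was at 166, 214, 148 and 149 CPM in it and at 162, 143, 154 and 166 CPM without a state, a log2 difference of 0.03 ± 0.08 (edgeR adjusted p 0.783). This is the neighbour that shares the start-site stretch printed above with Ccl6. Ccl2 differed by 0.07 (0.646) and Ccl12 by -0.03 (0.888). The values of all 3 overlapped between the classes.

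The interferon class was led by Ccl12. Of the 8 tested chemokines 4 were higher and none lower, where 3.19% of all genes differed, 2.78% higher and 0.412% lower. The median log2 difference of the 8 was 0.61, against -0.01 over all genes.

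Ccl12, a Ccr2 ligand, was at 1150, 1037, 1864 and 1016 CPM in the interferon class and at 209, 196, 206 and 257 CPM without a state. The log2 difference was 2.58 ± 0.13, 5.98-fold, with an adjusted p of 7.47e-31 (edgeR). Control replicate 1 was highest in the class, and without it the difference was 2.28. The class was 3.85% of cells and held 15.3% of Ccl12 UMIs, and 54.5% of its cells had a Ccl12 UMI against 28.3% of cells of no state.

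Ccl2 was at 149, 292, 179 and 128 CPM in the interferon class against 104, 130, 92.2 and 130 CPM without a state (0.75 ± 0.13, edgeR adjusted p 1.33e-05). In Control replicate 2 the interferon class was not the higher one, and the call was lost when 2 listed genes sufficed for a state (0.269). Ccl4 was at 481, 584, 480 and 447 CPM against 317, 351, 234 and 386 CPM (0.66 ± 0.10, adjusted p 9.71e-07). Cxcl16 was at 103, 96.0, 67.5 and 92.4 CPM, and its difference of 0.55 ± 0.17 was barely past the threshold (edgeR adjusted p 0.0473). The Cxcl16 call was lost without cKO replicate 1 (adjusted p 0.212), without cKO replicate 2 (0.254) and without Control replicate 2 (0.144). Ccl3 (0.27, adjusted p 0.143), Ccl5 (1.36, 0.308), Ccl6 (-0.18, 0.709) and Ccl9 (-0.20, 0.638) did not pass.

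Monocyte markers moved with the interferon class. All 8 of them had UMIs in it, 206 UMIs in all, and their summed level was 38.4 to 392 CPM against 27.2 to 48.7 CPM in cells of no state. Control replicate 1, highest in Ccl12, was also highest in this sum. Without cells carrying 2 or more markers of a class other than microglia, Ccl12 stood at 2.56 on the log2 scale (adjusted p 9.14e-37, edgeR), while Cxcl16 was lost (0.126).

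The cytokine class showed small rises. Of the 8 chemokines 3 were higher and none lower, where 0.458% of all genes differed, 0.332% higher and 0.126% lower. The median of the 8 was 0.34, against 0.00 over all genes.

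Ccl4 was at 599, 587, 379 and 544 CPM in the cytokine class against 317, 351, 234 and 386 CPM without a state, higher in all 4 libraries (0.72 ± 0.07, 1.65-fold, edgeR adjusted p 8.38e-14). Ccl3 was at 469, 449, 396 and 609 CPM against 383, 353, 288 and 507 CPM (0.33 ± 0.06, adjusted p 5.86e-04). The Ccl3 call was lost with DESeq2 and when 2 listed genes sufficed for a state. Ccl2 was at 121, 189, 135 and 137 CPM (0.35 ± 0.08, edgeR adjusted p 0.0168). This Ccl2 call was lost in 10 of 14 alternative fits. Among them were DESeq2, 4 listed genes for a state, all UMIs of the classed cells and depths of 1000 and 3000 UMIs. The 10 also include the fits without Control replicate 1 (0.461) and without cKO replicate 2 (0.296). Ccl12 (0.34, adjusted p 0.430), Cxcl16 (0.22, 0.644), Ccl5 (0.58, 0.827), Ccl6 (-0.09, 0.886) and Ccl9 (0.03, 0.990) did not pass.

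**Figure D2:**
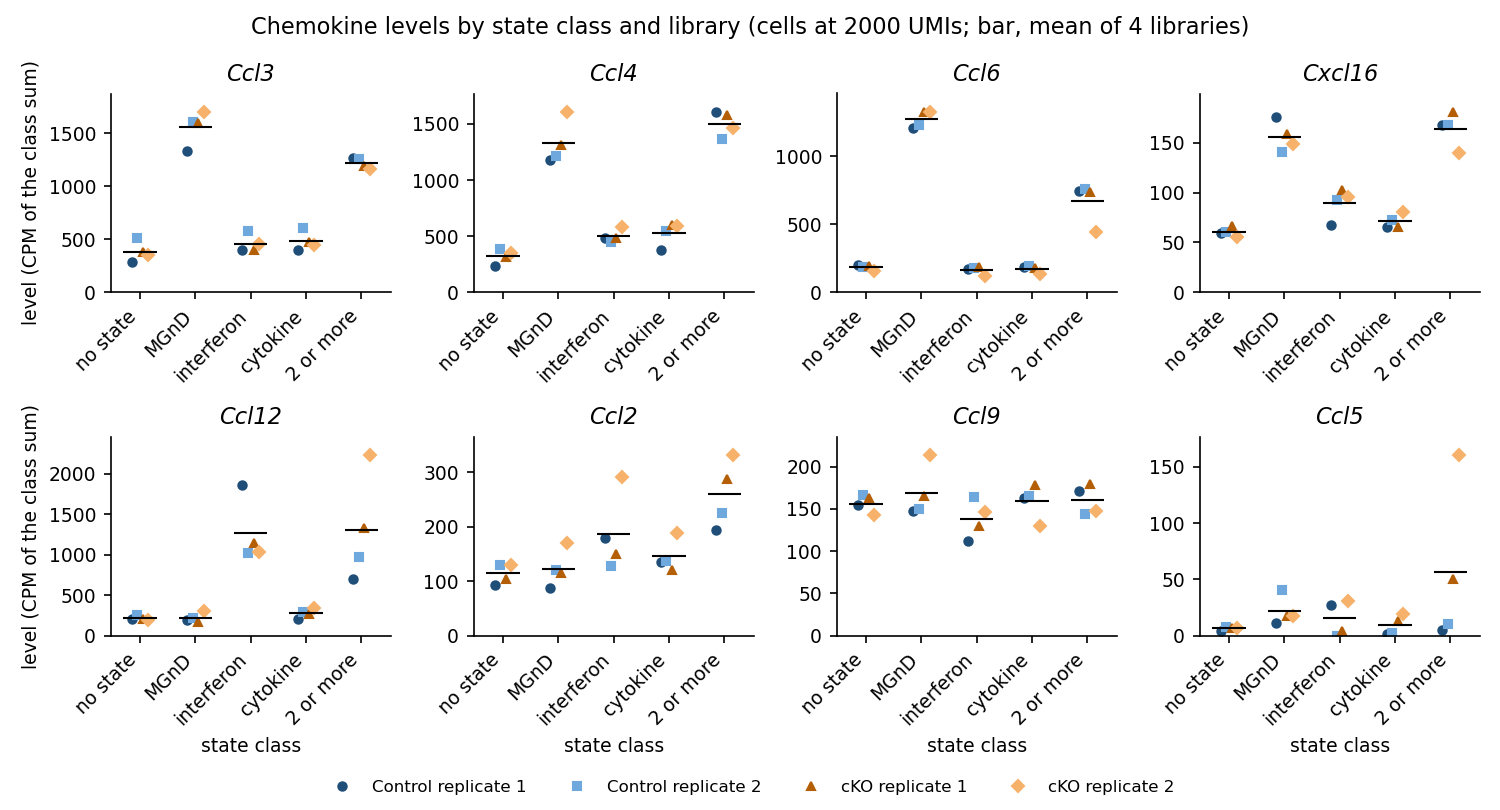
Level of each tested chemokine in CPM (vertical axes, linear scale), with cells thinned to 2000 UMIs. Horizontal axes give cells of no state, the MGnD, interferon and cytokine classes and the mixed class. Each point is 1 library, and bars are means over the libraries. Ccl6, Ccl3 and Ccl4 are highest in the MGnD and mixed classes, and Ccl12 in the interferon and mixed classes.

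The states were then compared with each other. Between the MGnD and interferon classes 6 of the 8 chemokines differed, where 21.8% of all genes did (11.8% higher in the MGnD class and 10% lower). Ccl6 (log2 2.94), Ccl3 (1.77), Ccl4 (1.39) and Cxcl16 (0.84) were higher in the MGnD class, and Ccl12 (-2.61) and Ccl2 (-0.68) were lower. Between the MGnD and cytokine classes 6 of 8 differed, where 35.4% of all genes did (18.5% higher and 16.9% lower). Ccl6 (2.85), Ccl3 (1.70), Ccl4 (1.33), Ccl5 (1.33) and Cxcl16 (1.17) were higher in the MGnD class, and Ccl2 was lower (-0.29, edgeR adjusted p 0.0335). The Ccl2 call was lost in 9 of 14 alternative fits, among them DESeq2 and the fit without Control replicate 1 (0.35). The Ccl5 call was lost in 5 of 14, among them DESeq2 and the fit without Control replicate 2 (0.271), and changed sign in 1. The calls of Ccl4 (edgeR adjusted p 0.226), Ccl2 and Ccl5 were lost without cells holding 4 or more of 12 immediate-early and heat-shock genes. That fit kept 13 to 33 cytokine cells in a library. Over 14 alternative fits the lowest Ccl4 difference between these classes was 0.27. Between the interferon and cytokine classes 1 of 8 differed, where 3.77% of all genes did (3.17% higher in the interferon class and 0.595% lower). It was Ccl12, higher by 2.24 ± 0.14 in the interferon class (edgeR adjusted p 2.77e-24) and by 1.83 without Control replicate 1.

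Cells with more than 1 state had the broadest set. Of the 8 chemokines 7 were higher than in cells of no state and none lower, where 20.4% of all genes differed, 12.2% higher and 8.17% lower. The log2 differences were 3.00 for Ccl5, 2.55 for Ccl12, 2.26 for Ccl4, 1.87 for Ccl6, 1.70 for Ccl3, 1.45 for Cxcl16 and 1.20 for Ccl2. Ccl12 varied widely there, at 1336, 2235, 701 and 973 CPM. Ccl5 reached 50.4 and 160.6 CPM in cKO against 5.02 and 10.1 CPM in Control. These were 7.08 and 23.6 times the Ccl5 level without a state in cKO, and 1.20 and 1.36 times in Control. The Control values rested on 2 and 3 UMIs. Ccl9, at 144 to 179 CPM, was the exception (0.05). Against cells of no state, the mixed class had a median depth of 10562 against 6230 UMIs, high doublet scores in 6.18% against 2.21% of cells and 2 or more markers of another class in 30.1% against 16.5%. Those markers were counted before thinning, where deeper cells can hold more of them. The monocyte marker sum of the mixed class was 15.1 to 219 CPM, highest in cKO replicate 1. The part of these properties in the values of the mixed class was not tested. Differences of the mixed class are given for the main fit only, without the alternatives.

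Other properties of the cells moved with the MGnD class. Its cells had a median depth before thinning of 11754 UMIs against 6230 in cells of no state, as means over libraries. Scrublet's highest doublet scores fell on 6.54% of them against 2.21%. Cells with 2 or more markers of another class were 26.3% against 16.5%, counted before thinning, where deeper cells can hold more markers. The median mitochondrial share was 3.15% against 2.01%, and the border-macrophage marker sum was 17.8 against 9.34 CPM. The summed level of 12 immediate-early and heat-shock genes was 5534 CPM in it against 11182 CPM without a state, and 4 or more of these genes were seen in 55.6% against 92.4% of cells. The calls of Ccl3, Ccl4, Ccl6 and Cxcl16 against cells of no state held without the doublet scores and without the cells of 4 or more such genes.

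The levels followed the number of state genes in a cell and not only the class limit. Among cells in neither other state, mean Ccl6 UMIs per thinned cell went from 0.28 ± 0.03 (SD, n = 4 libraries) with no MGnD gene to 2.85 ± 0.27 with 6 or more. Ccl4 went from 0.52 ± 0.13 to 2.52 ± 0.10 and Ccl3 from 0.65 to 3.20. Ccl12 was at 0.46 with no MGnD gene and at 0.30 with 6 or more. Along the interferon list Ccl12 went from 0.42 ± 0.04 with no gene to 1.90 ± 0.54 with 4 genes, and its share of cells from 27.0% to 55.8%. With 6 or more genes it reached 7.01 ± 2.47 in the 3 libraries with at least 20 such cells. Along the cytokine list Ccl4 went from 0.59 ± 0.17 with no gene to 1.80 ± 0.37 with 5, and Ccl3 from 0.71 to 1.51. No bin beyond 5 cytokine genes had 20 cells in a library.

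**Figure D3:**
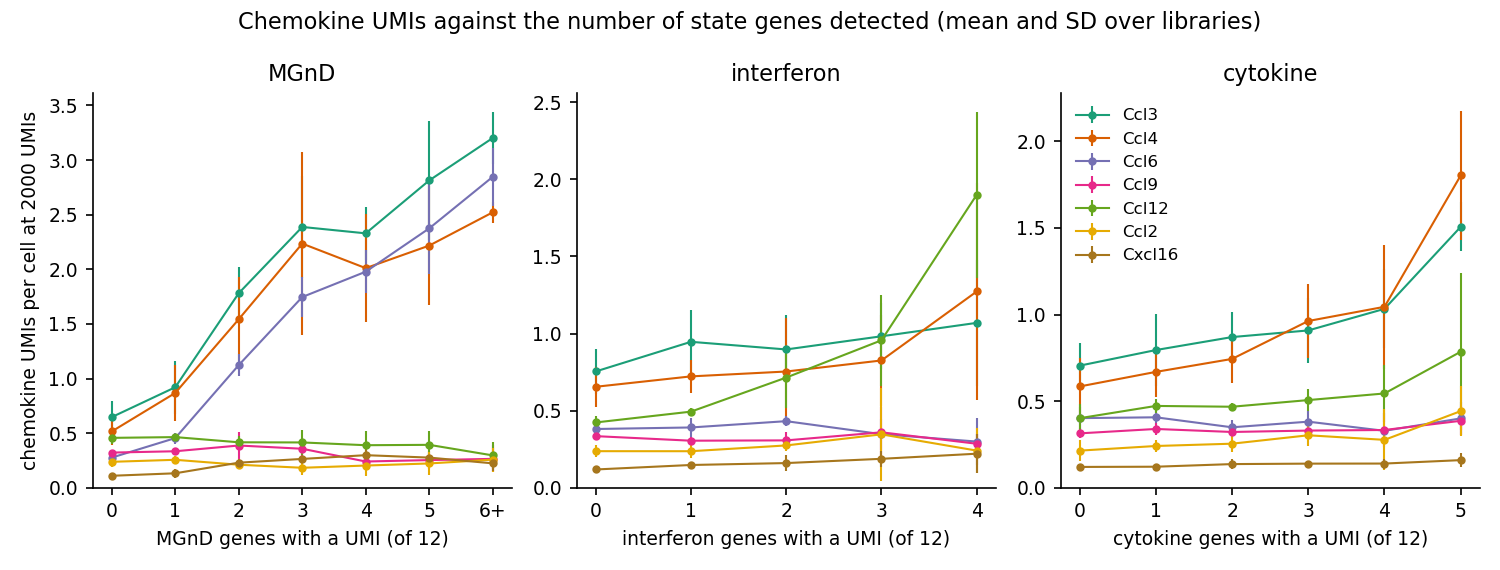
Mean UMIs per cell thinned to 2000 UMIs (vertical axes) against the number of listed MGnD, interferon or cytokine genes in the cell (horizontal axes), for cells in neither other state. Points are means and bars SD over 4 libraries, for bins with at least 20 cells in every library; Ccl6 goes from 0.28 to 2.85 along the MGnD list and Ccl12 from 0.42 to 1.90 along the interferon list.

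Chemokines also met in the same cells. Ccl3 and Ccl4 were found together in 2769 thinned cells, where their separate shares in each library would give 1783, and the ratio was 1.42 to 1.72 over libraries. In cells of no state the ratio was 1.53 to 1.93, so this pairing was not limited to cells placed in a state. Ccl2 and Ccl7, neighbours and Ccr2 ligands, were together in 41 cells against 14.4 (2.10 to 3.63), and Ccl7 and Ccl12 in 56 against 27.6 (1.77 to 2.32). For Ccl2 and Ccl12 the ratio was 1.27 to 1.35. Over all thinned cells Ccl6 and Ccl9 were at 1.03 to 1.13, and Ccl3 and Ccl9 at 0.979 to 1.01, near independent detection. In cells of no state Ccl6 and Ccl9 were together in 569 cells against 492 (1.11 to 1.19), above 1 in each library. Ccl3 and Ccl9 were at 1.01 to 1.06 there. The mean number of these 10 chemokines detected per thinned cell was 1.53 to 1.77 without a state and 2.76 to 2.99 in the MGnD class, and 12.2 to 18.2% of all thinned cells of a library had none.

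The genes most like each chemokine were found by Pearson's r of log2 CPM over the 20 sums of library and class, after each library's mean was subtracted, among 6518 genes. The sums share libraries and classes, so r is a description. Ccl6 was most like Ctsd (1.00), Tyrobp (0.99) and Hexa (0.99), of which Ctsd and Hexa encode lysosomal enzymes. Ccl3 was most like Myo1e, Cd9 and Ctsb (0.98 to 0.99), and Ccl4 most like Ccl3 (0.96), Gpr65 (0.95) and Axl (0.95), which is itself on the MGnD list. Ccl12 was most like Herc6 (0.97), Ifit3 (0.97, on the interferon list) and Slfn2 (0.96). Ccl2 was most like Cxcl10 (0.86), Ccl12 (0.84) and Herc6 (0.83). Cxcl16 was most like Milr1, H2-D1 and Csf1 (0.96 each), the last on the MGnD list. For Ccl9 no gene came above 0.80 (Nptn 0.80, Tubgcp4 0.80, Imp3 0.76), and its r with Ccl6 was 0.40.

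Ccr1, the receptor of Ccl3 and Ccl6, was lower in the MGnD class, where these ligands were higher. Of 5 listed receptors 2 were tested between classes. Ccr1 fell by 1.80 ± 0.36 on the log2 scale in the MGnD class (edgeR adjusted p 2.14e-05), and Ccr2 did not pass there (-0.23, 0.677). In library order Ccr1 was at 1.17, 8.91, 5.69 and 4.08 CPM in the MGnD class. Without a state it was at 7.12, 9.54, 28.7 and 8.68 CPM. The fall was thus slight in cKO replicate 2, and no Ccr1 value without Control replicate 1 is given. In the mixed class, where Ccl3 and Ccl6 were also higher, Ccr1 did not pass (-0.82, edgeR adjusted p 0.203). In the interferon class Ccr2, which is also 1 of the 8 monocyte markers, was higher, at 31.1 against 7.99 CPM (1.89 ± 0.39, adjusted p 4.06e-04). Neither passed in the cytokine class. Over the whole data Ccr1 had 1394 UMIs, Ccr2 1020, Ccr3 109, Cxcr2 103 and Cxcr6 36.

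Of 17 other receptors 2 were tested. Cx3cr1, the fractalkine receptor of resting microglia, was lower in the MGnD class (-0.83, 2003 against 3573 CPM), and the atypical receptor gene Ccrl2 was higher in the MGnD (0.80) and cytokine (0.55, edgeR adjusted p 0.00329) classes. Of 25 other ligands 3 were tested. Cxcl9 passed in the MGnD class (2.56) through cKO replicate 2, at 125 CPM against 7.63 CPM without a state, while the other 3 libraries were at 0 to 5.84 CPM in the class. Cxcl10, an interferon-induced ligand, rose in the interferon class (4.39, means of 71.1 against 3.20 CPM, 5.13 to 183 CPM over libraries) and in the cytokine class (2.62). Of 5 listed proteases 3 were tested, and Adam10, a sheddase of Cxcl16, was lower in the MGnD class (-0.37) where Cxcl16 was higher.

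The genotypes were compared on all UMIs of each library's cells. No gene of 13607 tested passed an adjusted p of 0.05 in edgeR's quasi-likelihood test (0% called), and none of the 10 chemokines did. Before adjustment 987 genes had a p under 0.05, and DESeq2 called 18. With 2 libraries in a group, an exact permutation test over libraries cannot go below 0.333. The labels call the libraries biological replicates, and the p-values measure the spread between them. In these sums fewer cells of a state and less RNA per cell cannot be told apart.

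Levels of 4 chemokines did not overlap between the genotypes, Ccl2, Ccl6, Ccl7 and Ccl12, which is 4 of 10 where 39.2% of all tested genes did not overlap. The chemokines were thus near the background. Ccl7 was at 6.18 and 6.52 CPM in cKO and at 2.69 and 3.96 CPM in Control (log2 difference 0.95 ± 0.21, unadjusted p 0.00155, edgeR adjusted p 0.498). Ccl6 was at 391 and 280 CPM in cKO and at 452 and 491 CPM in Control (-0.49 ± 0.15, unadjusted p 0.0103, edgeR adjusted p 0.682). Ccl2 was at 138 and 159 CPM in cKO and at 101 and 137 CPM in Control (0.32 ± 0.14, edgeR adjusted p 0.688). For Ccl2 the nearest libraries of the groups differed by about 1 CPM. Ccl12 was at 321 and 379 CPM in cKO and at 272 and 315 CPM in Control (0.25 ± 0.11, edgeR adjusted p 0.699).

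The other 6 overlapped. Ccl3 was at 627 and 560 CPM in cKO and 583 and 830 CPM in Control (-0.25, edgeR adjusted p 0.772). Ccl4 was at 613 and 595 CPM against 549 and 679 CPM (-0.02, 0.974), and Ccl9 at 160 and 155.5 CPM against 147 and 173 CPM (-0.02, 0.970). Cxcl16 was at 88.3 and 84.6 CPM against 84.7 and 92.7 CPM (-0.04, 0.938). These 4 genes were as far apart within a genotype as between genotypes. Ccl5 was at 10.8 and 20.7 CPM in cKO and 6.81 and 20.8 CPM in Control (0.21, edgeR adjusted p 0.936). Without its top cell in each library, an alternative added after seeing the data, Ccl5 stood at 10.2 and 18.9 CPM in cKO and 6.08 and 14.6 CPM in Control. Cxcl2 was at 1.87 and 2.56 CPM in cKO and 1.98 and 1.42 CPM in Control (0.35, 0.815).

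**Figure D4:**
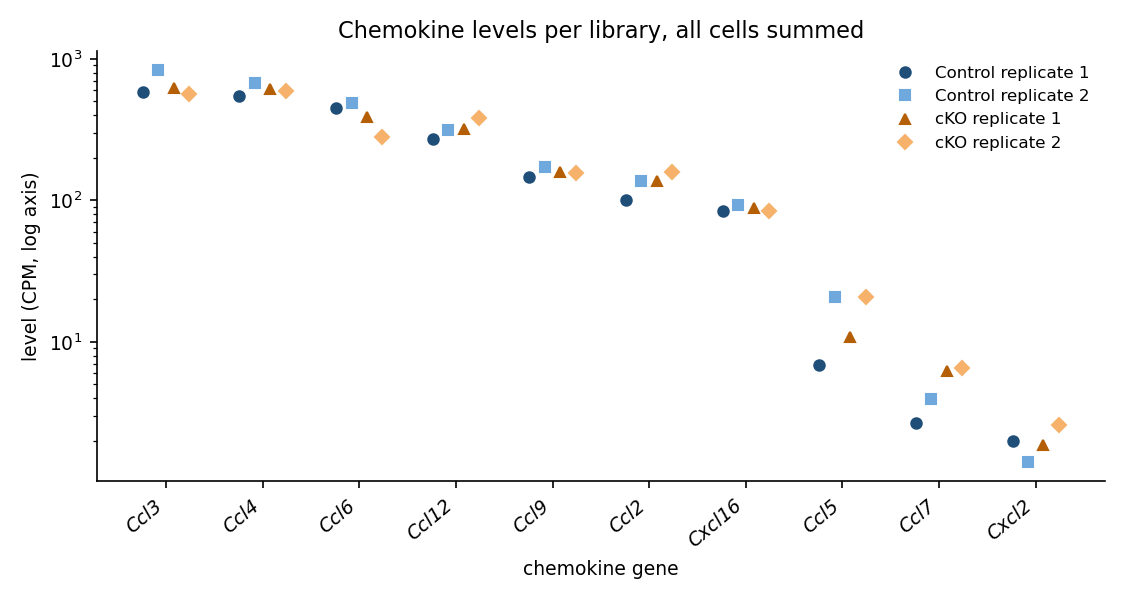
Level of each chemokine in CPM over all cells of a library (vertical axis, log scale), with the chemokine genes on the horizontal axis. Each point is 1 of the 2 cKO or 2 Control libraries. Ccl2, Ccl6, Ccl7 and Ccl12 do not overlap between the groups, and none of the 10 passed the test.

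Calls for Ccl6 and Ccl7 depended on the fit. Ccl6 passed without the low-count filter (edgeR adjusted p 0.000773), with DESeq2 (0.0193) and without cKO replicate 1 (-0.75, 0.00213). Ccl7 passed without the filter (9.39e-05) and without cKO replicate 1 (0.99, 0.0353). Without Control replicate 1, whose Xist was near 0, 30 genes passed and none was a chemokine; Ccl7 was then at 0.67, Ccl6 at -0.55 and Ccl5 at -0.41.

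The share of MGnD cells is given beside the Ccl6 difference, and a link between them was not tested. The MGnD class was 13.9% and 7.20% of cells in cKO, with a mean of 10.6%, and no less than 17.2% in Control, with a mean of 17.6% (exact permutation test over libraries, two-sided p = 0.333). In cells of no state alone the Ccl6 difference was -0.14 (edgeR adjusted p 0.970), at 196 and 154 CPM against 201 and 186 CPM. Within the MGnD class Ccl6 was at 1321 and 1328 CPM in cKO and at 1205 and 1231 CPM in Control, and there the cKO values were the higher ones. The cytokine class was 17.5% and 19.5% of cells in cKO and 13.7% and 13.9% in Control (exact p = 0.333), and the interferon class 3.54% and 4.58% against 3.53% and 3.76% (exact p = 0.667).

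Whether a genotype difference changed with the state was tested for 9 chemokines, all but Cxcl2. None passed in any of the 3 classes, where 3 genes of 9142 passed for MGnD (0.0328%), 1 for interferon (0.0109%) and 0 for cytokine (0%). Before adjustment 427, 462 and 349 genes had a p under 0.05. The smallest p among the chemokines was for Ccl5 in the cytokine class (2.52, unadjusted p 0.0025, edgeR adjusted p 1). There Ccl5 was at 13.3 and 19.3 CPM in cKO and at 1.72 and 2.68 CPM in Control. For Ccl6 in the MGnD class the interaction was 0.26 (unadjusted p 0.0272, edgeR adjusted p 0.998).

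Shares of cells at 2000 UMIs were compared as well. Those of Ccl5, Ccl7 and Cxcl2 did not overlap between genotypes, 3 of 10, where the shares of 36.7% of all tested genes did not. This is no more than the background. Ccl5 was in 1.12% and 1.88% of cKO cells and 0.700% and 0.798% of Control cells. Ccl7 was in 0.865% and 1.05% against 0.450% and 0.570%, and Cxcl2 in 0.279% and 0.263% against 0.125% and 0.114%. The Cxcl2 shares were 10 and 7 cells in cKO and 5 and 3 in Control. At 3000 UMIs Cxcl2 overlapped, at 0.173% and 0.270% in cKO against 0.231% and 0.312% in Control. Ccl5 overlapped there too, at 1.15% and 2.23% against 0.847% and 1.21%, while Ccl7 did not. The exact permutation p ranged from 0.333, the smallest that 2 against 2 libraries can give, to 1.

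In the listed receptors, other ligands and proteases, 0 genes passed between genotypes. The largest differences among the named ones were in interferon-induced ligands. Cxcl10 was at 43.6 and 69.4 CPM in cKO and at 9.37 and 22.0 CPM in Control (log2 difference 1.88, edgeR adjusted p 0.334), and Cxcl9 differed by 2.24 (0.593). Cx3cr1 differed by -0.81 (0.334). None of the 5 listed receptors of the 10 chemokines passed.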

How the data were processed

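Single-cell 3′ libraries (10x v3.1) were read from 4 samples. The submitters' processing notes name Cell Ranger 4.0.0 and mm10. The authors deposited unnormalised UMI counts for every barcode, as the file headers and whole-number values show. Libraries held 33130800 to 47574406 UMIs.

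The 10 genes, the state lists and the pathway lists were chosen with earlier results of these data known. Cells with 1000 UMIs, 500 genes and at most 10% mitochondrial UMIs were kept, and doublets were not removed, since Scrublet's own limit marked 1 of 13940 cells. Cells thinned to 2000 UMIs were classed by 3 of 12 listed genes, and counts were summed by library and class (sums of at least 20 cells). Tests used edgeR 4.0.16 (TMM, filterByExpr, quasi-likelihood, two-sided, Benjamini-Hochberg at 0.05) in R 4.3.3, with DESeq2 1.42.0 as an alternative; scripts were tested on simulated data. Levels are TMM-scaled CPM. All members are named; from each pathway list up to 3 genes with the smallest p in the genotype fit and in each state contrast, and for each member with a mean log2 CPM of at least 4 the 3 genes of highest r. Binomial intervals and floors (3 counts) cover counting error only. Replicate numbers did not pair the libraries (correlation of deviations 0.178 over 13607 genes, 2 numbers). One further receptor gene is not reported here.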

Additional observations from a re-analysis of the deposited data

How the results depend on the processing

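With 2 libraries in a group the genotype comparison has little precision, and with a library left out a lone sample is assumed to vary like the others. Class results rest on 489 interferon cells, and leaving out cells with 4 or more of 12 stress genes kept 20 of them in Control replicate 1 and 5 to 14 in each other library, so that 1 library reached the 20 cells a sum needs. For Ccl3, Ccl4, Ccl6 and Cxcl16 in the MGnD class and Ccl4 in the cytokine class, direction and call held in all 14 alternatives. For Ccl12 and Ccl4 in the interferon class they held in the other 13, the 1-library fit set aside. For the MGnD, interferon and cytokine classes against cells of no state 285 values kept direction and call. Of the others 21 lost the call, 6 gained it and 24 changed sign. Of the pairs of classes 162 kept both, 18 lost the call and 2 changed sign. The causes of these changes were not tested.

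Genes called between genotypes numbered 0 and became 350 without the low-count filter, 18 with DESeq2, 8 on thinned cells, 4 with at least 2000 UMIs, 2 without cells carrying other-class markers, 10 in cells of no state, 8 without those stress-high cells and 26 to 613 with a library left out (613 without cKO replicate 1). Chemokines called became 3, 1 and 0 to 2 without the filter, with DESeq2 and with a library left out. With the replicate number as a block 170 genes were called, 2 of them chemokines (Ccl6, adjusted p 0.0491, and Ccl7, 0.00481); the libraries share only a number. Under edgeR, Ccl2 between genotypes passed without the filter alone (0.0443).

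Chemokines called in the cytokine class fell from 3 to 1 with DESeq2 and to 1 with 2 listed genes for a state. For the class fits of this paragraph the share of all genes called was not counted. The counts of chemokines therefore stand without a background. Without stress-high cells 2 were called in the interferon class (its 1 library), 3 between MGnD and interferon and 3 between MGnD and cytokine. Between interferon and cytokine 2 were called with 4 listed genes, at 1000 UMIs and with all UMIs of the classed cells, and 1 to 2 with a library left out. Genotype by interferon called 0 to 1 chemokines with a library left out, Ccl12 being called without Control replicate 2. Shares that did not overlap between genotypes numbered 3 of 10, then 5 at 1000 UMIs, where 35.4% of all genes did not, and 5 to 8 with a library left out, where 63.7 to 73.8% did not.

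With a library left out the genotype difference ran from -0.49 to 0.030 for Ccl3, -0.17 to 0.14 for Ccl4, -0.14 to 0.10 for Ccl9 and -0.10 to 0.033 for Cxcl16, each above 0 only without Control replicate 2. For Ccl5 it ran from -0.41 without Control replicate 1 to 1.21. Ccl4 was at 0.052 on thinned cells. In cells of no state Ccl4 was at 0.11, Ccl12 at -0.19 and Cxcl16 at 0.026. Without stress-high cells Ccl9 was at 0.23 and Cxcl16 at 0.022.

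In the MGnD class, with a library left out, Ccl2 ran from -0.029 to 0.11, Ccl9 from -0.069 to 0.078 and Ccl12 from -0.21 to 0.066. Ccl2 was at -0.020 with 2 listed genes, -0.26 at 1000 UMIs and -0.12 without stress-high cells. Ccl5 was at -0.22 at 1000 UMIs and -1.06 without stress-high cells. Ccl9 was at -0.15 with 4 listed genes and -0.22 without stress-high cells. Ccl12 was at 0.0063 with DESeq2 and 0.0037 at 3000 UMIs.

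In the interferon class without stress-high cells Ccl5 was at -4.77, Ccl6 at 0.045 and Cxcl16 at -0.44. With all UMIs Ccl6 was at 0.17 and Ccl9 at 0.14, and at 1000 UMIs Ccl9 was at 0.26. In the cytokine class Ccl5 was at -0.22 with 2 listed genes and -4.43 without stress-high cells. Ccl9 there ran from -0.019 to 0.075 with a library left out and was at -0.0033 with 2 listed genes, and Cxcl16 was at -1.19 without stress-high cells. Between classes Ccl4 was at -0.014 for MGnD minus interferon without stress-high cells, and Ccl5 at -1.20 for MGnD minus cytokine at 1000 UMIs.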
